A study of Komagataella phaffii GS115 with 9 samples.

Results

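The abundance profile of the parent strain of *P. pastoris* growing on methanol was described from the 3 libraries labelled as the parent at 28 °C, out of 9 libraries in the series. The parent (WT_Met) was sampled at 60 h of methanol induction. It carries a recombinant lipase gene under the promoter of alcohol oxidase 1, which methanol switches on, and the same construct is present in the robust mutant that makes up the other 6 libraries. The labels give flask-batch cultures in a buffered glycerol medium and a buffered methanol medium, and the study describes the 3 libraries as biological replicates. The members were chosen by label alone, and no strain or temperature is compared here.

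Methylotrophic yeasts such as *P. pastoris* grow on a compound with a single carbon atom. Alcohol oxidase in the peroxisome turns methanol into formaldehyde and hydrogen peroxide. Formaldehyde is then either joined to xylulose 5-phosphate by dihydroxyacetone synthase, which leads to biomass, or burned to carbon dioxide through formaldehyde and formate dehydrogenases, which yields NADH. Transcripts of these enzymes are known to be among the most abundant in methanol-grown cells, which is why promoters from this pathway are used to drive recombinant proteins. The locus tags in the table could not be paired with gene names, so no feature below is identified with any of these enzymes, and the label could not be checked against methanol genes.

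The table holds 5557 features, of which 5478 are locus tags on chromosomes 1 to 4, 49 are mitochondrial locus tags and 30 carry no locus tag. Values are FPKM, the number of fragments scaled to the length of the feature and to the size of the library. This scaling puts features of different length on a common scale. It does not remove every effect of length, as replicate 1 differed from the others by length, described below. Each library is scaled to a size of its own, which the values put at 0.874 to 0.879 of its reads on features. A value thus says how common a transcript is in the library and not how much RNA a cell holds. The number of cells cannot be read from it either. The 3 libraries held 13998350, 13844328 and 13655260 reads on features, recovered from the steps between values. At this depth, 3 reads on a feature of 1000 bases correspond to 0.244 to 0.251 FPKM, and such limits cover counting error only. Recovered lengths had a median of 1143 bases and reached 14853 bases. Of the 5351 chromosome tags of at least 100 bases, 5336 (99.7%) had a length divisible by 3, as coding lengths have. What each tag encodes was not examined.

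The transcriptome was led by CHR4-0130, a feature of 1992 bases on chromosome 4. It had 20582, 21096 and 21564 FPKM in replicates 1, 2 and 3, a mean of 21081 ± 491 (SD, n = 3). All 3 libraries placed it first, and its lowest value was above the highest value of any other feature. Its level was 315 times the median level over all features and 1.26 times that of the feature at rank 2. On its own it held 1.99% ± 0.052 (SD, n = 3) of all summed FPKM and 3.68% ± 0.081 of all reads.

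The feature at rank 2 was CHR3-0238, with 1098 bases on chromosome 3. Its values were 16929, 16088 and 17165 FPKM, with a mean of 16727 ± 566 (SD, n = 3). No library brought it within reach of CHR4-0130 or down to the level of rank 3, whose highest value was 15495 FPKM.

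Ranks 3 and 4 formed a pair whose values overlapped. Rank 3 had 14826, 14742 and 15495 FPKM over 2124 bases, and rank 4 had 14809, 14446 and 15087 FPKM over only 354 bases. The former was the higher of the pair in all 3 libraries, but by a ratio of means of only 1.02. In reads they were far apart, with 386898 mean reads at rank 3 and 63458 at rank 4.

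Ranks 5 and 6 stood clear of their immediate neighbours, but rank 8 reached 10212 FPKM in replicate 1, above the lowest value at rank 6. Rank 5 had 12346, 12523 and 12666 FPKM over 513 bases, and rank 6 had 10371, 10051 and 10968 FPKM over 312 bases. Together with ranks 1 to 4, these were the 6 features with a mean of at least 10000 FPKM, and they held 8.54% of the summed FPKM.

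Ranks 7 to 10 could be put in order only in part. Rank 7 had 9263, 9212 and 9163 FPKM, while rank 8 had 10212 FPKM in replicate 1 and 8626 and 8735 FPKM in replicates 2 and 3. Rank 9 went the other way, with 8170 FPKM in replicate 1 and 8936 and 9316 FPKM in the others. Rank 10 had 8598, 8593 and 8446 FPKM. Each neighbouring pair among these 4 features overlapped, and of the pairs farther apart, ranks 7 and 8 each lay above rank 10 in all their values, while ranks 7 and 9 overlapped. The lowest value at rank 10 stayed above the highest at rank 11, which was 8262 FPKM, but rank 9 fell below that value in replicate 1.

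**Figure D1:**
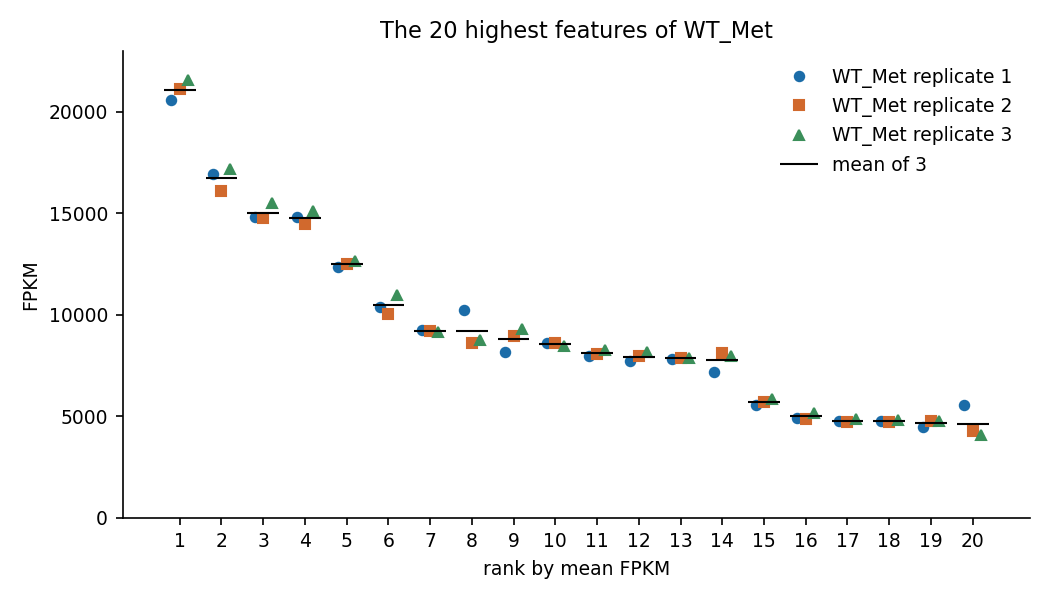
FPKM (y axis, linear, from 0) of the 20 features with the highest mean in WT_Met (x axis, rank), with 1 point per replicate and a line at the mean of 3. The first feature, at 20582 to 21564 FPKM, sits above all others, and at ranks 8 and 20 replicate 1 lies above both other replicates.

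The order of the highest features was firm at a few steps only. Among the top 20, the 3 values of a feature and those of the next did not overlap for 9 of 19 neighbouring pairs. This compares each feature with the next only, and some of these steps were crossed by features farther up or down the list. For example, the highest value at rank 20, 5554 FPKM, lay above all values at rank 16. The widest step after the first 6 ranks was between ranks 14 and 15, a ratio of means of 1.36, where the lowest value above the step was 7196 FPKM and the highest below it 5852 FPKM. Farther down the list the steps became too fine for the spread. Only 14 of 49 neighbouring pairs among the top 50, and 15 of 99 among the top 100, did not overlap. Membership was steadier than order. The same 10 features were the top 10 of every library, 19 features were in the top 20 of every library, and 90 features were in the top 100 of every library.

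The top 20 came from all chromosomes, with 4, 4, 7 and 5 features on chromosomes 1, 2, 3 and 4, and none was mitochondrial or without a locus tag. Their lengths ran from 195 to 2124 bases. Among them, 9 of 20 were shorter than 600 bases, against 20.1% of all features with a length. Ranking by reads gave another list. It shared 12 of 20 features with the ranking by FPKM, and 5 of 10 in the top 10. The top 20 by reads had a median length of 1511 bases, against 845 bases for the top 20 by FPKM. CHR4-0130 was first in both lists, and CHR3-0238 was the second by FPKM and the third by reads.

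A small part of the features held most of the transcript signal. The top 10 held 11.9% ± 0.174 (SD, n = 3) of the summed FPKM, the top 100 held 33.9% ± 0.305 and the top 1000 held 72.3% ± 0.133. Counted the other way, 283, 283 and 277 features made up 50% of the sum in replicates 1, 2 and 3. A share of 90% took 2643, 2666 and 2657 features. The 2778 features of lowest level held 9.21% of the sum. The share of the top 10 was lowest in replicate 2 at 11.8% and highest in replicate 3 at 12.1%, a range smaller than the share of any single feature among those 10. By reads the head of the list was heavier and the middle lighter, with 14.6% ± 0.206 in the top 10 and 325 ± 4.73 features for 50% of all reads.

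**Figure D2:**
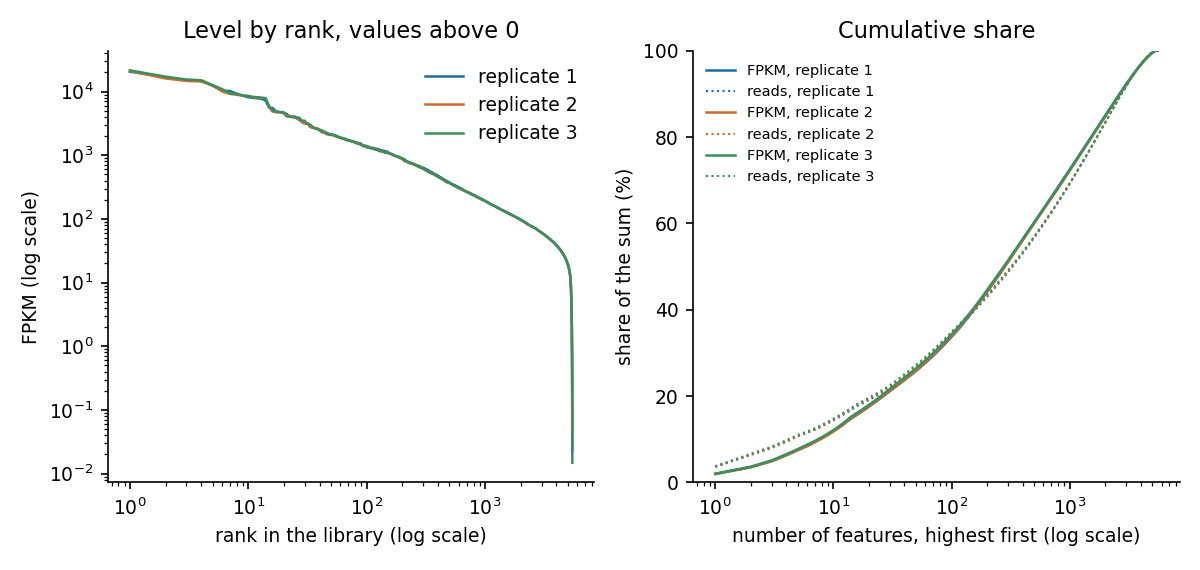
Left, FPKM against rank in each library for values above 0, both axes on a log scale. Right, the cumulative share of summed FPKM (solid lines) and of reads (dotted lines) against the number of features on a log axis, in each of the 3 replicates, where the FPKM curves reach 50% at 277 to 283 features.

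Most features sat in a narrow band of levels. The median over all features was 66.8 FPKM for the mean of 3 libraries and 67.3, 66.9 and 67.0 FPKM in the single libraries. The 25th and 75th percentiles were 35.6 and 137 FPKM, a 3.86-fold range. The band from 10 to 100 FPKM held 3353 features, 60.3% of the total, but only 15.7% of the summed FPKM. The next band, 100 to 1000 FPKM, held 1763 features and 42.6% of the sum. A level of at least 1000 FPKM was reached by 171 features, 3.08% of the total, which held 41.7% of the sum. Of these, 162 were above 1000 FPKM in each library. Among features of at least 100 bases the upper tail was longer than the lower, with the 99th percentile 28.9 times the median and the median 21.5 times the first percentile.

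Above 300 bases, levels declined with length. Between 300 and 600 bases the median was 104 FPKM, and it was 78.8 FPKM at 600 to 1200 bases, 63.3 FPKM at 1200 to 2400 bases, 44.0 FPKM at 2400 to 4800 bases and 25.1 FPKM for 4800 bases and more. The share of features with at least 1000 FPKM went from 7.81% at 300 to 600 bases to 0.341% at 2400 to 4800 bases, and none of the 78 features of 4800 bases and more reached it. Across the 5422 features with a mean of at least 1 FPKM, Spearman's rho between length and level was -0.24, and between length and reads 0.37. These are descriptions across features, which are not independent replicates, and level contains a division by the same length.

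**Figure D3:**
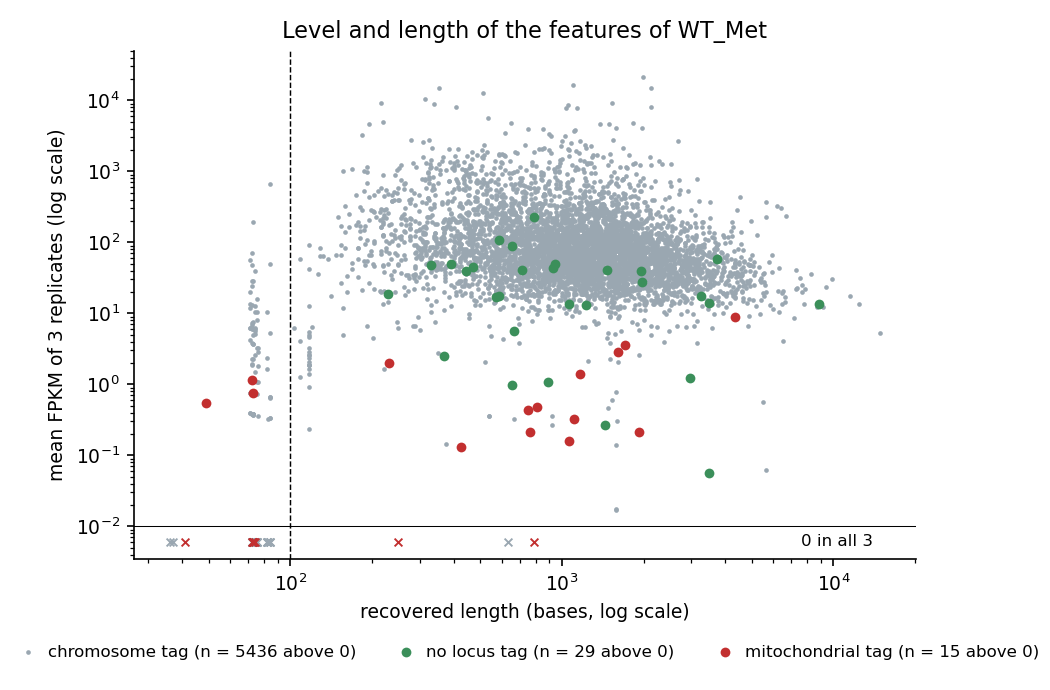
Mean FPKM of 3 replicates (y axis, log scale) against recovered length in bases (x axis, log scale), with 1 point per feature, coloured by class, and features at 0 in all 3 libraries drawn as crosses below the line. Levels decline with length above 300 bases, and the groups of features at 71 to 84 bases, left of the dashed line at 100 bases, and at 117 bases lie low.

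The 4 chromosomes contributed signal roughly in step with their number of features. Chromosome 1 held 30.4% of the features and 26.4% ± 0.069 (SD, n = 3) of the summed FPKM. Chromosome 4 held 19.4% of the features and 22.4% ± 0.146 of the sum, but 19.5% of the sum once the 10 highest features were left out. Median levels ranged only from 64.9 FPKM on chromosome 1 to 71.3 FPKM on chromosome 2. Chromosome 3 stood out in reads, with 29.4% ± 0.123 of them against 26.0% ± 0.095 of the summed FPKM. The features at ranks 2, 3 and 4 by reads were all on chromosome 3, with 386898, 222751 and 204523 mean reads. Its share of reads without them was not computed.

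Signal was bunched at one place on chromosome 3, which was picked after its values were seen. Among all runs of 10 consecutive locus tags, the run from CHR3-0343 to CHR3-0352 held the largest share, 3.04% ± 0.064 (SD, n = 3) of the summed FPKM. The best runs on chromosomes 1, 2 and 4 held 1.28%, 1.15% and 2.48%. The difference was in how the signal was spread. Without its highest feature the run on chromosome 3 kept 1.62% of the sum, while the runs on chromosomes 1, 2 and 4 kept 0.103%, 0.279% and 0.496%. Of its 10 features, 5 had at least 1000 FPKM and 3 were in the top 20.

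Inside this run, levels differed widely between neighbours. CHR3-0350 had 14826, 14742 and 15495 FPKM and CHR3-0352, of the same recovered length of 2124 bases, had 7718, 7957 and 8147 FPKM. The former exceeded the latter 1.92-, 1.85- and 1.90-fold in the 3 libraries, a mean ratio of 1.89 ± 0.035 (SD, n = 3). CHR3-0351, which lies between them in the numbering, had 130, 135 and 147 FPKM. CHR3-0343 had 4753, 4722 and 4805 FPKM, and its neighbour CHR3-0344 had only 21.6, 19.5 and 20.5 FPKM. CHR3-0347 was at 0 in all 3 libraries. Sequences were not examined, and if features of equal length were near-identical copies, their reads could be split or lost in counting. Over whole chromosomes, neighbouring tags were weakly alike, with Spearman's rho between neighbours of 0.09, 0.13, 0.19 and 0.15 on chromosomes 1, 2, 3 and 4.

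Few features gave no reads. Of 5557 features, 77 were at 0 in all 3 libraries, 61 had reads in 1 or 2 libraries and 5419 had reads in all 3. Counting features with under 3 reads in every library gave 121. Leaving out features known to be under 200 bases left 44 at 0. These 44 include the 41 features at 0 in all 9 libraries of the series, whose lengths are unknown. The silent set was made of 42 chromosome tags, 34 mitochondrial tags and 1 feature without a locus tag. Of the 42 chromosome tags, 15 had no reads in any of the 9 libraries of the series, so their length could not be recovered, and 26 were under 100 bases. Among chromosome tags of at least 100 bases, 1 of 5351 was at 0, against 5339 with reads in all 3 libraries. This was CHR2-1484, of 633 bases, singled out after its values were seen, for which 0 reads allow a level of up to 0.386 to 0.397 FPKM.

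Very short features were low as a group. The 112 chromosome tags under 100 bases were nearly all (110) of 71 to 84 bases, which is the size range of transfer RNA genes, although the files do not say what these tags encode. Their median was 1.08 FPKM, against 70.3 FPKM for longer chromosome tags, and 26 were at 0. Depth limits these values, since 1 read on 73 bases already equals 1.12 to 1.15 FPKM and 0 reads allow up to 3.35 to 3.44 FPKM. Only 2 of the 112 had a mean of at least 100 FPKM. The higher was CHR1-1664, chosen after its values were seen, with 84 bases and 739, 630 and 602 FPKM. A second group of 19 chromosome tags, all of 117 bases and spread over the 4 chromosomes, had a median of 2.57 FPKM, against 121 FPKM for the other 222 chromosome tags of 100 to 300 bases. Its highest member had a mean of 91.8 FPKM, so the group was low but not uniform. What library preparation and counting lose among features of either group was not tested, so low values need not mean low transcription.

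Beyond the short ones, features of very low level gathered at the ends of the numbering. Tags run densely along each chromosome up to a number between 1018 and 1584 and become sparse after it. Of the 18 chromosome tags of at least 100 bases with a mean below 1 FPKM, 14 (77.8%) lay within 25 places of the first or last densely numbered tag, counting on past it. Of all 5351 such tags, 291 (5.44%) did. The low tags had at most 47 reads in a library. Position near an end did not go with a low level in general, since the median was 68.0 FPKM near the ends and 70.4 FPKM elsewhere. A place in the numbering is not a map position, and tags past the dense part may lie anywhere on the chromosome.

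Several lengths were shared within those 18, with pairs of tags at 918, 537 and 117 bases. In the largest such set, 1 tag of 1583 bases on each chromosome was nearly silent. This length is not divisible by 3, and the 4 tags were chosen after their values were seen. CHR1-1592 had 9, 17 and 19 reads, CHR2-1303 had 1, 0 and 0 reads, CHR3-1242 had 1, 7 and 0 reads and CHR4-1025 had 0, 1 and 0 reads. Only the tag on chromosome 1 was above 3 reads in every library, and features that are near copies may be uncertain in the authors' counting.

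Mitochondrial features gave almost no signal. All 49 together had 535, 672 and 749 reads, which were 0.00382%, 0.00485% and 0.00549% of all reads on features, and 34 were at 0. The highest, MIT-0245 with 4353 bases, had 7.52, 9.08 and 10.2 FPKM and alone had 402, 481 and 531 of those reads. Both values were lowest in replicate 1 and highest in replicate 3. Whether the library preparation kept mitochondrial transcripts was not tested, so these values do not give the level of mitochondrial transcription in the cells.

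The 30 features without a locus tag were detected but low. Reads were found in all 3 libraries for 29 of them, their median was 18.1 FPKM against 66.8 FPKM over all features, and together all 30 held 0.0984% of the summed FPKM. The highest had 205, 239 and 240 FPKM over 788 bases. None reached 1000 FPKM.

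The replicates followed each other closely. Pearson's r of log2(FPKM + 1) across features was 0.995, 0.994 and 0.995 for the pairs of replicates 1 and 2, 1 and 3, and 2 and 3. A chi-square of the reads per degree of freedom was 4.16, 6.30 and 3.93 for these pairs. Each pair differed by more than counting error, so none was treated as a repeat deposit of 1 library. That they are biological replicates rests on the study's description alone. The coefficient of variation (SD over mean) had a median of 4.32% at 30 to 100 FPKM and 2.95% at 1000 FPKM and more. Counting error alone would give 3.42% and 0.819% at these levels. The spread thus lay closer to counting error in low features than in high ones. At 1 to 10 FPKM the median was 25.9%, where counting error alone would give 22.4%. The median coefficient of 3 values lies below the true one by construction, so the part beyond counting is larger than these pairs of values show.

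The widest spread lay where reads were fewest. Among features with a mean of at least 5 FPKM, CHR1-1373 had the highest coefficient of variation, 84.2%, with 1.13, 6.85 and 12.8 FPKM. CHR3-0717 came next at 70.3%, with 12.4, 6.85 and 2.33 FPKM. Both have 72 bases, and these values rest on 1, 6 and 11 reads and on 11, 6 and 2 reads. The libraries ran in opposite orders in the 2 features. Of the 15 features with the widest spread, 11 were under 100 bases, and none of the 15 had more than 42.3 mean reads. Among the top 20 the steadiest was the feature at rank 13, with 7836, 7884 and 7875 FPKM, a coefficient of variation of 0.324%.

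**Figure D4:**
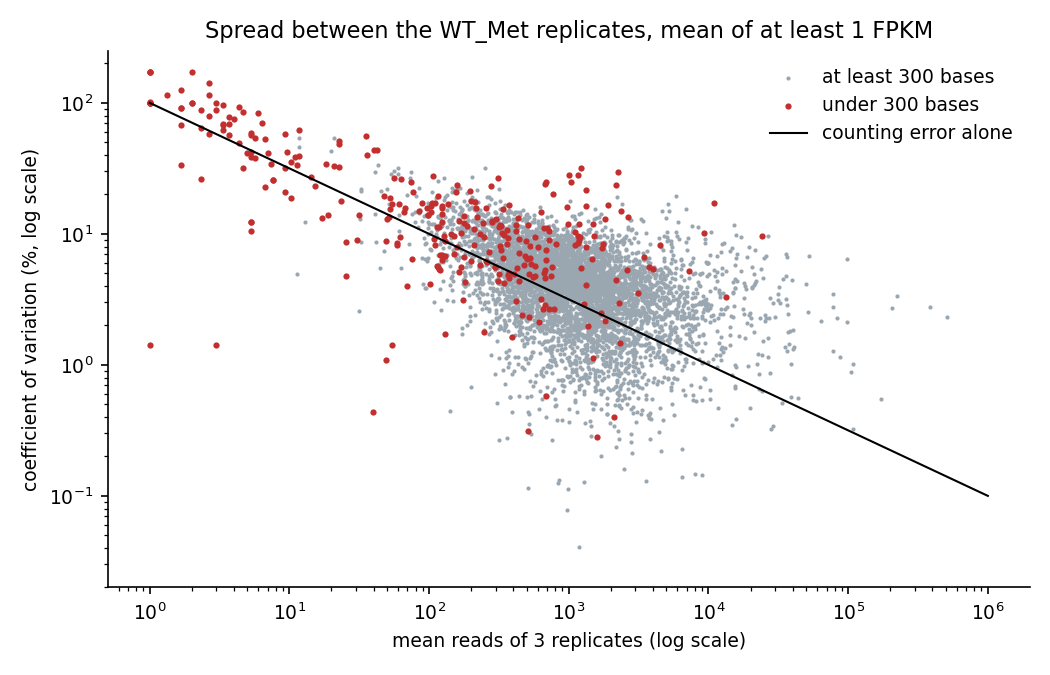
Coefficient of variation over 3 replicates (y axis, percent, log scale) against mean reads (x axis, log scale) for features with a mean of at least 1 FPKM, features under 300 bases in red, and the spread that counting error alone would give as a line. The points follow the line at low reads and lie above it at high reads, and red points sit among the widest at 1000 reads and more.

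High features with a wide spread were highest in the same library, and most were short. Among the 1934 features with a mean of at least 100 FPKM, 24 had a coefficient of variation above 15%, and replicate 1 was the highest library in all 24. Of these 24, 18 were under 300 bases, against 6.41% of the 1934, and the other 6 reached 1728 bases. In them replicate 1 was 1.16 to 1.67 times the mean of the other replicates, with a median of 1.33. CHR2-1968 at rank 20, named after its values were seen, is one of them, with 195 bases and 5554, 4272 and 4090 FPKM. Without replicate 1, 10 features passed the same limit, and without replicate 2, 51 did, so the count rests on which libraries are used.

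Which library was the highest also differed by length among features with many reads. Among features of 100 to 300 bases with at least 1000 mean reads, replicate 1 was the highest in 70.8% of 48. These include 10 of the 24 features above, and without them replicate 1 was the highest in 24 of 38 (63.2%), with a median ratio to the mean of the others of 1.08. Replicate 1 was the highest in 39.7% of 1180 features at 1200 to 2400 bases, and in 11.1% of 63 at 4800 bases and more, where replicate 2 was the highest in 69.8%. The median ratio of replicate 1 to the mean of the others was 1.13 in all 48 features of the shortest of these classes and 0.965 in the longest. The shortest class also had the widest spread, with a median coefficient of variation of 8.32%, where counting error alone would give 2.42%. At 1200 to 2400 bases the values were 3.05% and 2.22%. Depth differed little between these libraries, and what else moved with length in replicate 1 was not tested.

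**Figure D5:**
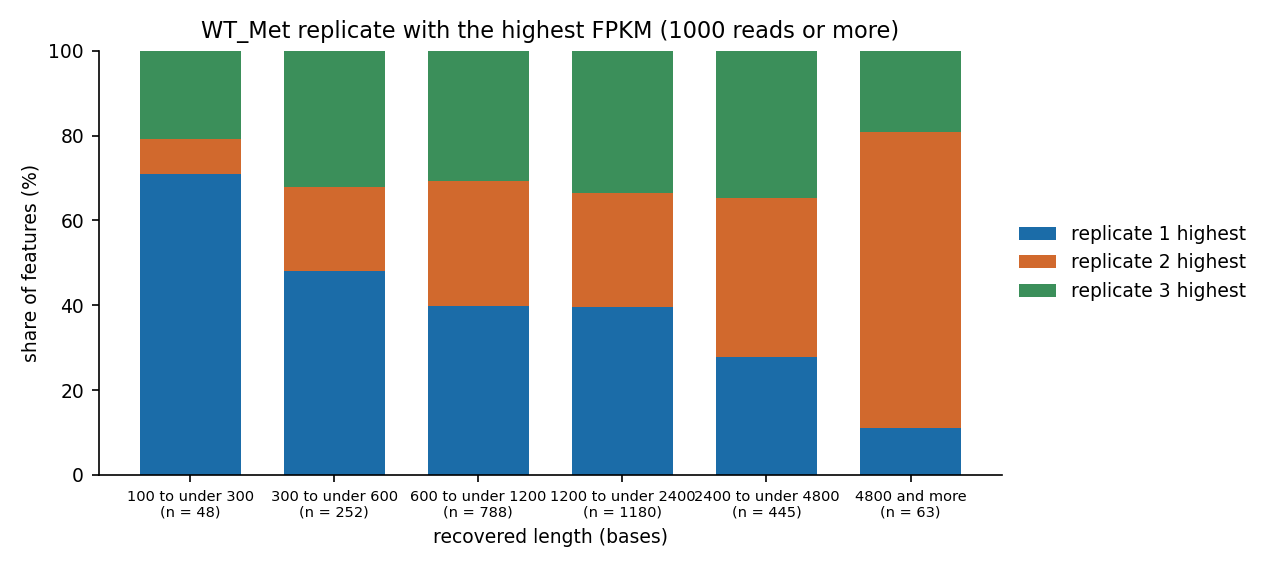
Share of features (y axis, percent) in which each WT_Met replicate had the highest FPKM, by class of recovered length in bases (x axis, with the number of features), for features with at least 1000 mean reads. Replicate 1 goes from 70.8% in the shortest class to 11.1% in the longest, and replicate 2 is the highest in 69.8% of the longest.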

How the data were processed

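RNA-seq of the 3 WT_Met libraries was used. A sequencing company made, sequenced, checked and aligned the libraries, and the submitters' processing notes name CASAVA, HISAT2 2.0.5 and featureCounts 1.5.0-p3. The genome build and annotation version are not stated in the sources used here. The locus tags carry the prefix PP7435, which is left out of the tags printed above. The authors deposited 1 table of values that have the form of FPKM, a unit inferred from the values. All of its value columns belong to labelled samples.

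The spacing of the values in all 9 libraries gave whole reads (tolerance 0.001) and a length for all 5516 features that had reads in any library. The library size that the values imply was 0.874 to 0.879 of the reads in the 3 libraries. Lengths of features with few reads may be too small by a common factor. A library size wrong by a small whole factor was looked for in the divisibility of the reads. The recovery was tested on simulated data, which held no features under 100 bases or of 117 bases, so the test does not cover these.

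Levels are means of 3 with sample SD. No comparison between groups was made, because the design has 1 group, and no p-value is given. A chi-square of reads per degree of freedom only sets each pair of replicates against counting error. The reference gene table covers strain GS115, with 5040 genes, and 0 of the PP7435 locus tags matched it. Methanol pathway genes and the other gene lists were therefore not ranked. The recombinant lipase was not analysed here. Locus tags were named by rule for the 2 highest means and the 2 highest coefficients of variation at a mean of at least 5 FPKM, and any other tag was named after its values were seen. A chromosome's tags were taken as dense until the median of the next 10 gaps in number exceeded 3, a rule set with the data in view. The members and lists were chosen with earlier results of these data known. Alternatives were reads in place of FPKM, filters on length and level, another pseudocount and leaving out each replicate. Values were computed with pandas 2.3.3, numpy 2.4.6 and scipy 1.17.1 in Python 3.11.15 and drawn with matplotlib 3.10.9.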

Additional observations from a re-analysis of the deposited data

How the results depend on the processing

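Of 80 alternative values for 17 results, 57 moved by less than the replicate SD or, for counts, by under 1.5 times. The other 23 moved by more and 0 changed sign, but most of the results are counts or shares, which cannot change sign. Ranking by reads without division by length gave shares of 14.6%, 19.4% and 34.5% for the top 10, 20 and 100, kept 12 of the top 20, and gave chromosomes 1, 2, 3 and 4 shares of 25.2%, 24.0%, 29.4% and 21.3%. Without features known to be under 200 bases, the top 10 and top 20 held 12.2% and 18.1%. With this filter 44 features were at 0 and 69 had a mean below 1 FPKM, against 135 with all features. Both counts include 41 features of unknown length. With fewer than 3 reads counted as silent, 121 features were silent in place of 77. At other limits for a low mean, 81 features lay below 0.1 FPKM and 201 below 5 FPKM, against 135 below 1 FPKM. Of these, only the count below 0.1 FPKM is among the values that moved. A pseudocount of 0.1 lowered the mean Pearson correlation of log2 values to 0.984. Without a filter on low values, the rho of length and level was -0.19. Leaving out each replicate gave a median coefficient of variation of 3.18% to 3.76% against 4.20% with all 3, where the coefficient of 2 values is smaller by construction. It gave a mean Pearson correlation of 0.994 to 0.995, a rho of length and level of -0.24 to -0.23, and 10 to 51 features with a mean of at least 100 FPKM and a coefficient above 15%, an alternative chosen after seeing the data. Ranks of methanol pathway genes and other gene lists were not run, since tags could not be paired with names. No paired analysis was possible because the description covers 1 group and makes no test. Depth limits statements on features with few reads, above all those under 100 bases. What library preparation and counting lose among short and mitochondrial features was not tested.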
